A study of Mus musculus with 9 samples.

Results

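The genes described here are the D-type cyclins Ccnd1, Ccnd2 and Ccnd3, their partner kinases Cdk4 and Cdk6, the kinases' substrate Rb1, and the CDK inhibitors Cdkn1a, Cdkn1b, Cdkn2c and Cdkn2d, measured in macrophages of the fetal liver. They were found by matching the Ensembl identifiers of the deposited table to gene symbols. All 10 of them have a row among the 13708 genes of the table, and all 10 passed the filter on low values that left 13594 genes to be tested. They were chosen by name as a pathway, after the normalized counts of Ccnd2 in the same samples had been seen to be higher in Mrc1Cre Xpr1fl/fl than in control macrophages. The level of Ccnd2 is therefore given as a description without a test, and the calls of the other 9 genes come from the same comparison of genotypes and support nothing about the choice.

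Bulk RNA-seq was performed on macrophages sorted from E15.5 mouse livers as CD45+ F4/80hi CD11blow cells, a gate that took in Tim4hi and Tim4lo cells. There were 5 Mrc1Cre Xpr1fl/fl samples and 4 Xpr1fl/fl control samples. The strains had been backcrossed to C57BL/6JRj, and both groups carried Xpr1 alleles with loxP sites around the second exon. The controls lacked Cre. Xpr1 encodes a phosphate exporter of the cell membrane. Mrc1Cre mice carry an internal ribosomal entry site, iCre and eYFP inserted in an exon of the Mrc1 locus, and the Cre allele was used heterozygous. Cre is thus made in CD206+ cells, which in the liver include sinusoidal endothelial cells besides macrophages, and Mrc1 itself is the modified gene. The sources do not say whether each sample came from a separate embryo, so the p-values measure the spread between these samples.

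Cyclins of the D type are made in response to growth signals and bind CDK4 or CDK6. The active kinases phosphorylate RB1, which then releases E2F transcription factors, and genes for DNA replication are switched on. Inhibitors of the INK4 family, among them p18 (Cdkn2c) and p19 (Cdkn2d), bind CDK4 and CDK6 alone, whereas those of the CIP/KIP family, among them p21 (Cdkn1a) and p27 (Cdkn1b), bind cyclin-kinase complexes. Tissue macrophages of the fetus divide within the organ, largely under CSF1, and fetal liver macrophages sit at the centre of islands of dividing erythroblasts.

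Promoter windows of the genes were taken from RefSeq on GRCm38.p6, from 250 bases before to 50 bases after a start. Such windows were found for 7 of the 10 genes, 10 windows in all. None was at hand for Ccnd1, Ccnd2 and Rb1. The windows of Ccnd3 and Cdkn2d are printed because these genes were lower in Mrc1Cre Xpr1fl/fl macrophages, and that of Cdk4 because its level hardly differed between the genotypes. They read 5′ to 3′ on the strand of the gene. Capitals mark a GC box (GGGCGG, or CCGCCC where it lies on the other strand) or an E-box (CACGTG), the letters bound by SP1-like factors and by MYC and its relatives.
Ccnd3, chr17:47504801-47505100, plus strand: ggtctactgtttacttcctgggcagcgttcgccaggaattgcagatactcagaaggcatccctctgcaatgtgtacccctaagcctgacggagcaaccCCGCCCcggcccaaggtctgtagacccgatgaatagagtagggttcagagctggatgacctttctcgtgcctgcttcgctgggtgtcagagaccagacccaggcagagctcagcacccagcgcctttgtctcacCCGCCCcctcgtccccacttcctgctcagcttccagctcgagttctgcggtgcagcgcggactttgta
Ccnd3, chr17:47593217-47593516, plus strand: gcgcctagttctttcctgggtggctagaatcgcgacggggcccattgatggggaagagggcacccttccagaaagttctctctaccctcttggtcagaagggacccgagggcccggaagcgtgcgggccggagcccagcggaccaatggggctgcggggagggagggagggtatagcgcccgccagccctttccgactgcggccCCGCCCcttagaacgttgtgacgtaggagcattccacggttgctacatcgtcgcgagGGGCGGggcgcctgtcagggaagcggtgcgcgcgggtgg
Cdkn2d, chr9:21291160-21291459, minus strand: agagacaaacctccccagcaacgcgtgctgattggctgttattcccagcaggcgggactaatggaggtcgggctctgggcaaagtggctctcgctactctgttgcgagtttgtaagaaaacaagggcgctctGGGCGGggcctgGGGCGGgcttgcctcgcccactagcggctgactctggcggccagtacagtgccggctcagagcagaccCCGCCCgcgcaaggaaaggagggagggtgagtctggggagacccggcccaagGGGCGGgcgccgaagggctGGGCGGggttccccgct
Cdk4, chr10:127063285-127063584, plus strand: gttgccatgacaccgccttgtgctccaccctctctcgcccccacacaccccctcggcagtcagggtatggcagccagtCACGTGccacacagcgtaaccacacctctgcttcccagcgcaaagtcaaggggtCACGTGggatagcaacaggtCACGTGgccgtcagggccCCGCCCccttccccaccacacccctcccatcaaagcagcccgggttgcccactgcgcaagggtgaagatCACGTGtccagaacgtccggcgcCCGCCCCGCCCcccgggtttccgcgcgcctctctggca
Both Ccnd3 windows held 2 GC boxes. The Cdkn2d window held 5 GC boxes, and the Cdk4 window held 3 GC boxes, of which neighbours share 1 base, and 4 E-boxes. Of the 10 windows, which come from 7 genes, 7 held a GC box and 3 an E-box. Among all 32851 promoter windows of the same length the shares were 35.7% and 7.15%. The GC content of the 10 windows was 44.0 to 73.3%, and the background was not matched for it, so the shares are not a test of enrichment. Searched on both strands as well were E2F words (TTTGGCGC, TTTGCCGC, TTTCGCGC and TTTCCCGC), the CRE word TGACGTCA and the AP-1 words TGACTCA and TGAGTCA, present in 2.26%, 1.79% and 5.2% of all windows. No window of the 10 genes held these letters. A match is a description of the sequence and not a bound site.

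The values, called normalized counts below, are gene counts to which the authors had applied DESeq2 normalization. Totals per sample were 26942921 to 28309443. Because the normalization sets these totals, absolute depth is unknown. Xpr1 had 1073.7 to 1285.3 normalized counts in Mrc1Cre Xpr1fl/fl samples and 1780.9 to 2239.2 in controls (log2 fold change −0.77, limma adjusted p = 4.13e-05), and Mrc1 had 5923.1 to 9094.8 and 22143.6 to 28348.4. Reads are counted per gene, so Xpr1 transcripts that lack the deleted exon can still be counted. All 15 macrophage markers examined were present, with 1 higher, 8 lower and 6 not called. Their median log2 fold change was −0.41 and the lowest was −5.03. Their summed level was 351421 to 407145 in Mrc1Cre Xpr1fl/fl samples and 440540 to 586533 in controls, without overlap. Csf1r and Adgre1, which encodes F4/80, were among those not called. Markers of other liver cells were present in both genotypes and mostly lower in Mrc1Cre Xpr1fl/fl samples. All 28 erythroid markers measured were lower, with a median log2 fold change of −1.79. Their summed level was 97763 to 318839 in Mrc1Cre Xpr1fl/fl samples and 424154 to 674614 in controls, which is 0.347 to 1.14% and 1.57 to 2.43% of the total. All 13 hepatocyte markers and 12 of 14 endothelial markers were lower as well (summed level 36061 to 46517 against 60815 to 105620, and 6611 to 8787 against 10930 to 15489). Of 7 monocyte markers 1 was higher and 4 were lower, of 12 granulocyte and progenitor markers 6 were lower, of 5 megakaryocyte markers 2 were lower, and of 3 lymphoid markers measured 2 were lower and 1 was higher. Over all genes tested 43.1% were called, 21.5% higher and 21.6% lower, so counts in these short lists say little alone. Except for 1 megakaryocyte marker in 1 sample or more, no marker was at 0. The most abundant marker of each list had a log2 fold change of −0.90 (Cd5l, macrophage), −1.87 (Hba-a1, erythroid), −0.78 (Stab2, endothelial), −0.67 (Trf, hepatocyte), 0.91 (Plac8, monocyte), −1.42 (S100a9, granulocyte, not called), −1.76 (Pf4, megakaryocyte) and 0.22 (Cd79b, lymphoid), and the call of Cd79b was lost under several alternatives, 75th percentile scaling among them. In samples of sorted bulk cells, fewer cells of a type and less RNA per cell cannot be told apart. The column names start with 1 of 3 dates, whose meaning the sources do not give. Mrc1Cre Xpr1fl/fl sample 5 shares the earliest date with Xpr1fl/fl samples 1 to 3, Xpr1fl/fl sample 4 alone has the middle one, and Mrc1Cre Xpr1fl/fl samples 1 to 4 have the latest.

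Beside Ccnd2, whose counts were 3.3 times those of controls and which is left out of the counts of calls, 9 genes were compared. Of these Rb1 was higher and Ccnd3 and Cdkn2d were lower in Mrc1Cre Xpr1fl/fl macrophages, and 6 did not pass the threshold of 0.05 (limma on log2(normalized count + 1), Benjamini-Hochberg adjustment over all genes tested). The 3 calls are 33.3% of the 9 genes, and 43.1% of all genes tested were called, 21.5% higher and 21.6% lower. With each sample scaled to its 75th percentile, 0 of the 9 genes were higher and 3 were lower by limma (1 and 3 at an unadjusted p under 0.05), where 14.7% and 27.3% of all genes tested were (42% in all), so that the share of higher genes among all calls fell from 49.9% to 35.0%. The genotypes stood apart without overlap in 4 of the 9 genes, 1 above and 3 below the controls, and in 34.1% of all genes tested, 16.6% above and 17.5% below. The median log2 fold change of the 9 genes was 0.02, and that of all genes tested was 0.005. The plot of fold changes sets each gene against the spread of all genes tested. Ccnd2 lies beyond the 95th percentile of 0.69, whereas the other 9 genes lie between −0.68 and 0.38.

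**Figure D1:**
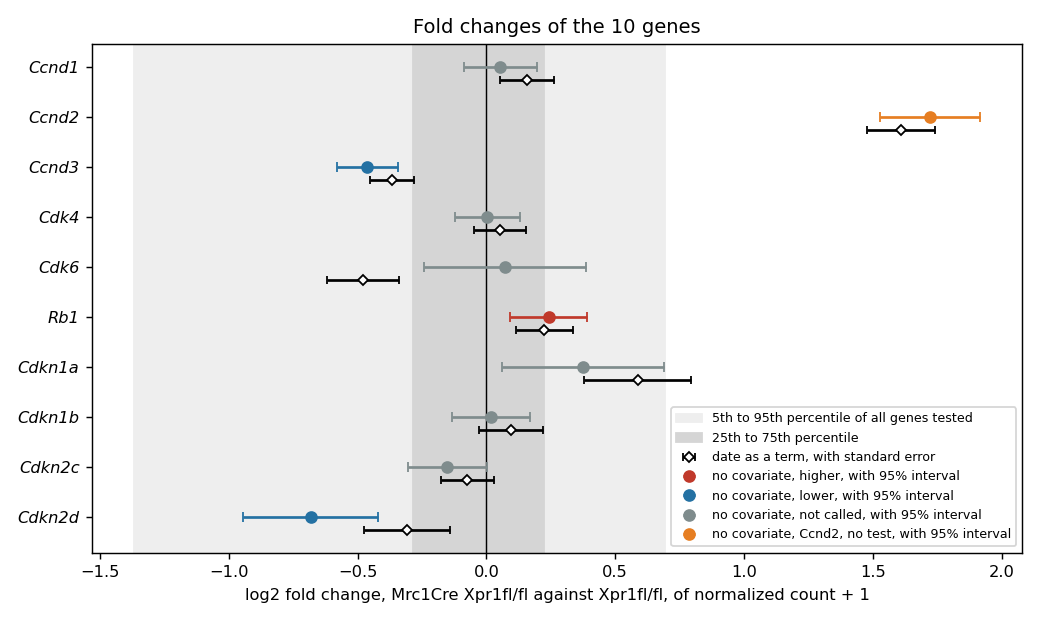
Log2 fold changes of the 10 genes (Mrc1Cre Xpr1fl/fl against Xpr1fl/fl, on log2 of normalized count + 1), with filled circles and 95% intervals for the fit without covariates and open diamonds with standard errors for the fit with the date. Shaded bands give the 5th to 95th and the 25th to 75th percentile of all genes tested. Ccnd2, drawn in orange and described without a test, lies outside the wider band at 1.72, and Cdk6 is the gene whose open diamond moves to the other side of 0.

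Ccnd2, which encodes cyclin D2 (ENSMUSG00000000184, chromosome 6 from 127102125 to 127129156 on the minus strand of GRCm39), was the gene with the largest difference of the 10. Its normalized counts were 2658.3, 3003.8, 2334.7, 2774.6 and 2599.2 in Mrc1Cre Xpr1fl/fl samples 1 to 5 and 906.8, 811.7, 836.4 and 688.7 in Xpr1fl/fl samples 1 to 4. Every Mrc1Cre Xpr1fl/fl sample lay above every control, and no sample lay between the groups. The means were 2674.1 ± 244.9 (SD, n = 5) and 810.9 ± 90.9 (SD, n = 4), a 3.3-fold difference. On the log2 scale the difference was 1.72 (standard error 0.09, 95% interval 1.53 to 1.92). Because the gene was chosen for this difference, the interval and the standard errors given for it are not a test. Of all genes tested, 97 (0.714%) had a log2 fold change at least as high, Ccnd2 included. In a fit that includes the date, and so sets Mrc1Cre Xpr1fl/fl sample 5 against Xpr1fl/fl samples 1 to 3, the difference was 1.61 (standard error 0.13).

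**Figure D2:**
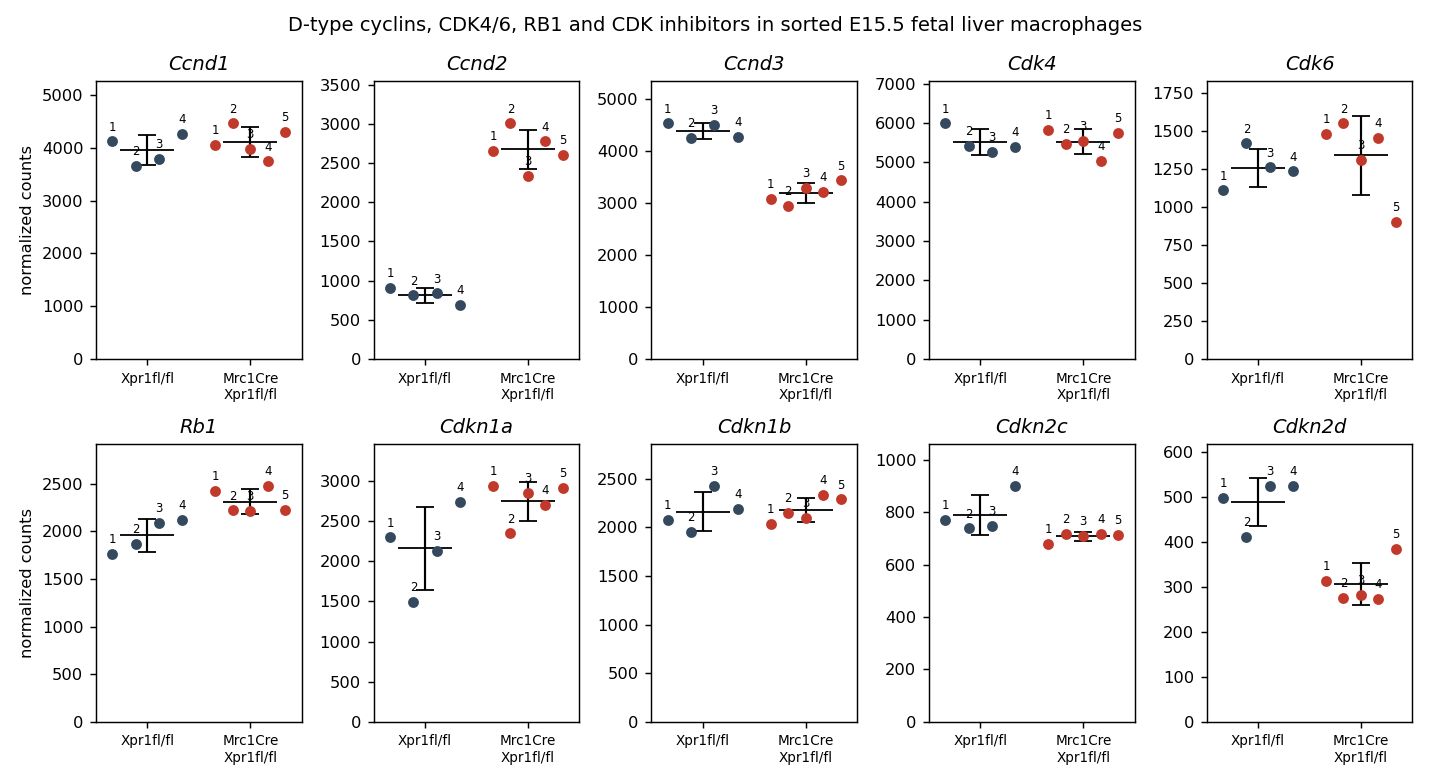
Normalized counts of each gene in the 4 Xpr1fl/fl (dark) and 5 Mrc1Cre Xpr1fl/fl (red) samples, numbered by sample, with the mean and SD as bars. All axes start at 0, and the groups stand apart in Ccnd2, Ccnd3, Rb1, Cdkn2c and Cdkn2d.

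Ccnd1, which encodes cyclin D1 (ENSMUSG00000070348, chromosome 7 from 144483668 to 144493662, minus strand), differed by less than the spread between samples. It was measured at 4052.3, 4461.8, 3985.7, 3742.2 and 4296.1 normalized counts in Mrc1Cre Xpr1fl/fl samples 1 to 5 and at 4120.2, 3661.2, 3786.7 and 4270.5 in controls 1 to 4, and the ranges overlapped almost wholly. The means were 4107.6 ± 279.5 and 3959.6 ± 283.6. The log2 fold change was 0.05 (95% interval −0.09 to 0.20, limma adjusted p = 0.539), and its sign turned to −0.03 when samples were scaled to their 75th percentile.

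Ccnd3, which encodes cyclin D3 (ENSMUSG00000034165, chromosome 17 from 47815767 to 47910624, plus strand), was lower in Mrc1Cre Xpr1fl/fl macrophages. Cyclin D3 is best known from developing lymphocytes and erythroblasts. Mrc1Cre Xpr1fl/fl samples 1 to 5 had 3075.6, 2945.7, 3289.3, 3214.3 and 3438.9 normalized counts and controls 1 to 4 had 4536.7, 4260.2, 4515.5 and 4269.4. No Mrc1Cre Xpr1fl/fl sample reached the lowest control, and sample 5 was nearest. That sample had the most erythroid RNA of its group and was also the only sample of its group to share a date with controls. Whether either property accounts for its nearness was not tested. The means were 3192.8 ± 190.5 and 4395.4 ± 151.1, or 0.726 times the control level. The log2 fold change was −0.46 (standard error 0.05, limma adjusted p = 8.36e-05) without covariates, and −0.37 (limma adjusted p = 0.0312) when the date was included. With the mean log2 value of the erythroid markers as a covariate it was −0.21 (limma adjusted p = 0.58). That covariate shares an r2 of 0.854 with genotype, so the part of erythroid RNA in the difference cannot be told apart from that of genotype.

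Levels of different genes can be compared only per length. Divided by the length of the union of each gene's annotated exons, Ccnd2 made up 19.3%, 20.3%, 17.3%, 20.7% and 17.9% of the summed D-type cyclin level in Mrc1Cre Xpr1fl/fl samples 1 to 5 and 6.65%, 6.57%, 6.49% and 5.13% in controls 1 to 4. The mean share was 19.1 ± 1.5% against 6.21 ± 0.726%, a gap of 12.9 percentage points. The share of Ccnd3 was 23.2 ± 1.82% against 34.3 ± 1.48%, and that of Ccnd1, the most abundant on this scale, was 57.7 ± 1.65% against 59.5 ± 2.11%. The summed level was 1488.4 ± 66.1 normalized counts per kilobase in Mrc1Cre Xpr1fl/fl samples and 1389.5 ± 61.4 in controls, 1.07-fold. With the longest transcript as the length, the sum was 1.01-fold (2313.6 ± 83.2 against 2292.7 ± 86.0), Ccnd2 made up 5.59 ± 0.608% of it in controls and 18.3 ± 1.53% in Mrc1Cre Xpr1fl/fl samples, and Ccnd3 rather than Ccnd1 held the larger share in controls, 49.7%. Which transcripts of these genes were present is not known from counts per gene, so the shares depend on the length used. The larger share of Ccnd2 in Mrc1Cre Xpr1fl/fl samples was seen with each length. That had to be so, since Ccnd2 was higher against both Ccnd1 and Ccnd3 and a length scales a gene alike in all samples. These shares contain the difference in Ccnd2 by which the genes were chosen, and no test is given.

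**Figure D3:**
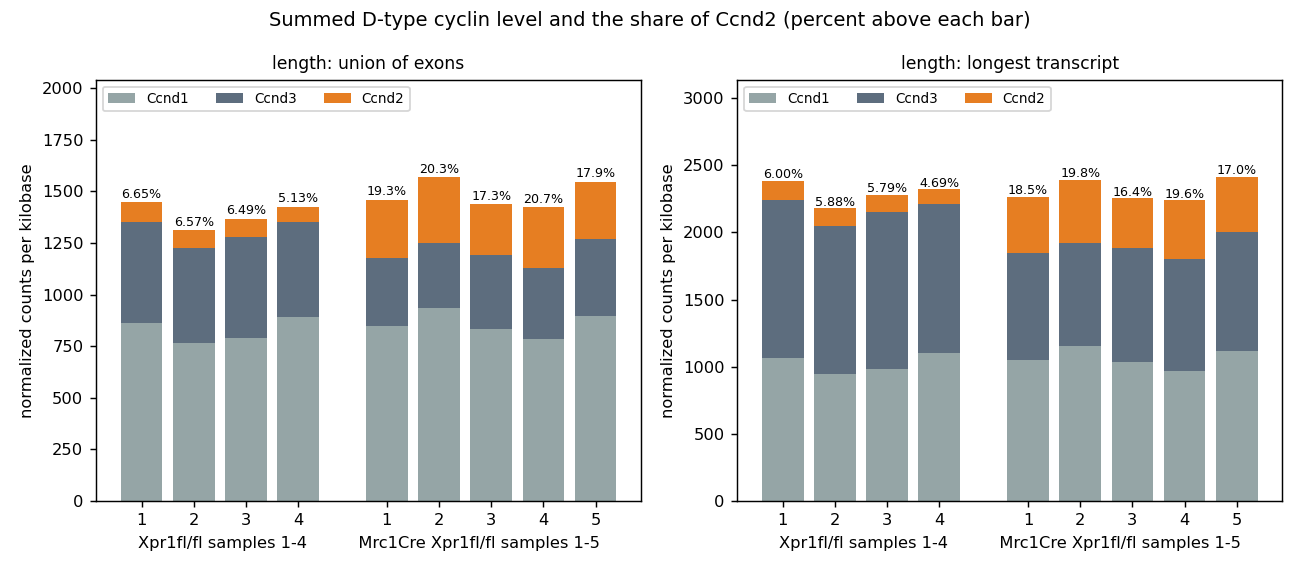
Summed level of Ccnd1, Ccnd3 and Ccnd2 in normalized counts per kilobase, 1 bar per sample, with the union of exons (left) or the longest transcript (right) as the length and the percent of Ccnd2 above each bar. The orange Ccnd2 part is 17.3 to 20.7% in the 5 Mrc1Cre Xpr1fl/fl bars on the left and 5.13 to 6.65% in the 4 control bars, while bar heights differ little between the genotypes.

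Cdk4, the kinase gene with the higher level (ENSMUSG00000006728, chromosome 10 from 126895180 to 126903789, plus strand), had nearly the same mean in both genotypes. Its normalized counts were 5833.2, 5472.9, 5549.9, 5031.6 and 5750.8 in Mrc1Cre Xpr1fl/fl samples 1 to 5 and 5990.4, 5408.3, 5270.0 and 5393.9 in controls 1 to 4. The ranges overlapped, and the means were 5527.7 ± 313.3 and 5515.7 ± 322.5. The 95% interval of the log2 fold change ran from −0.12 to 0.13 (limma adjusted p = 0.971).

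Cdk6, the other kinase that D-type cyclins bind (ENSMUSG00000040274, chromosome 5 from 3391485 to 3581008, plus strand), had the widest spread among Mrc1Cre Xpr1fl/fl samples relative to its mean. It had 1478.4, 1547.0, 1307.3, 1454.3 and 898.5 normalized counts in Mrc1Cre Xpr1fl/fl samples 1 to 5 and 1107.5, 1415.7, 1258.5 and 1231.6 in controls 1 to 4. Sample 5 was the lowest of all 9 samples, and the other 4 Mrc1Cre Xpr1fl/fl samples lay among or above the controls. The log2 fold change was 0.07 (95% interval −0.24 to 0.39, limma adjusted p = 0.712). Without sample 5 it was 0.21 (limma adjusted p = 0.0575), and in the fit with the date, which compares sample 5 with 3 controls, it was −0.48 (limma adjusted p = 0.0616). The value of Cdk6 thus moved with the weight that a fit gave to sample 5.

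Rb1 encodes the retinoblastoma protein, the brake that the kinases release (ENSMUSG00000022105, chromosome 14 from 73421113 to 73563507, minus strand). Its normalized counts were 2428.1, 2219.7, 2211.8, 2475.6 and 2223.6 in Mrc1Cre Xpr1fl/fl samples 1 to 5 and 1763.1, 1870.7, 2085.8 and 2117.0 in controls 1 to 4. All Mrc1Cre Xpr1fl/fl samples lay above the controls, by 94.8 counts at the closest. The means were 2311.8 ± 129.1 and 1959.1 ± 170.5, with a difference of 0.24 on the log2 scale (standard error 0.07, limma adjusted p = 0.0136). The call did not hold when the date was included (0.23, limma adjusted p = 0.236), nor with samples scaled to their 75th percentile (0.16, limma adjusted p = 0.0575).

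Of the CIP/KIP inhibitors, Cdkn1a is p21, a target of p53 (ENSMUSG00000023067, chromosome 17 from 29309936 to 29319701, plus strand). Mrc1Cre Xpr1fl/fl samples 1 to 5 held 2938.8, 2349.3, 2858.8, 2699.6 and 2914.8 normalized counts of it and controls 1 to 4 held 2300.0, 1491.0, 2126.7 and 2738.8. The control samples spread widely, and control 4 lay inside the range of Mrc1Cre Xpr1fl/fl. The means were 2752.3 ± 243.8 and 2164.1 ± 517.4, with a log2 fold change of 0.38 (95% interval 0.06 to 0.69, limma adjusted p = 0.0527). Single samples decided the call: without Xpr1fl/fl sample 4 the adjusted p was 0.0123 and the log2 fold change 0.50, without Mrc1Cre Xpr1fl/fl sample 2 they were 0.0411 and 0.43, and without Xpr1fl/fl sample 2 they were 0.11 and 0.21. The log2 fold change was 0.59 with the date and 1.03 with the erythroid covariate, and neither fit called the gene.

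Cdkn1b, which is p27 (ENSMUSG00000003031, chromosome 6 from 134897364 to 134902476, plus strand), showed no difference beyond the spread between samples. The lowest, median and highest normalized counts were 2036.1, 2149.2 and 2331.5 in Mrc1Cre Xpr1fl/fl samples and 1950.1, 2133.5 and 2424.3 in controls, so the control range enclosed the other. The log2 fold change had a 95% interval of −0.14 to 0.17 (limma adjusted p = 0.869).

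Both INK4 genes in the table had fewer counts in every Mrc1Cre Xpr1fl/fl sample than in any control, and of them Cdkn2d passed the threshold. Cdkn2d, which is p19 (ENSMUSG00000096472, chromosome 9 from 21199700 to 21202727, minus strand), is the gene printed above with 5 GC boxes in its promoter window. It had 312.9, 275.7, 282.2, 272.5 and 383.1 normalized counts in Mrc1Cre Xpr1fl/fl samples 1 to 5 and 497.8, 410.9, 523.3 and 523.4 in controls 1 to 4. Sample 5 came nearest to the controls, 27.8 counts below control 2. The means were 305.3 ± 46.4 and 488.8 ± 53.4, 0.625 times the control level, and the log2 fold change was −0.68 (standard error 0.12, limma adjusted p = 0.00101). It was −0.31 when the date was included (limma adjusted p = 0.28), and with the erythroid markers as a covariate −0.06 (limma adjusted p = 0.96).

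Cdkn2c, which is p18 (ENSMUSG00000028551, chromosome 4 from 109517957 to 109524386, minus strand), had 678.5, 716.9, 710.2, 717.9 and 714.1 normalized counts in Mrc1Cre Xpr1fl/fl samples 1 to 5. Controls 1 to 4 had 769.8, 738.2, 747.6 and 899.5. The groups did not overlap, but their ranges lay close together, and control 4 was far above the other 3. The log2 fold change was −0.15 (standard error 0.07, limma adjusted p = 0.101), and −0.09 without control 4 (limma adjusted p = 0.294). With samples scaled to their 75th percentile it was −0.23 and passed the threshold (limma adjusted p = 0.02). The other INK4 genes, Cdkn2a and Cdkn2b, have no row in the table used here.

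Set against the other 9 genes, Ccnd2 differed by 1.35 (against Cdkn1a) to 2.41 (against Cdkn2d) more on the log2 scale, and by 1.71 more than their median log2 fold change of 0.02. The distance to Ccnd3 was 2.19 and that to Ccnd1 was 1.67. The ratio of Ccnd2 to Ccnd3 counts was 0.71 to 1.02 in Mrc1Cre Xpr1fl/fl samples and 0.161 to 0.2 in controls. The ratio of Ccnd2 to Cdkn1b was 1.11 to 1.4 and 0.315 to 0.436, and that of Ccnd2 to Cdkn1a was 0.817 to 1.28 and 0.251 to 0.544. Each of these ratios compares the same pair of genes between samples, so gene length does not enter the comparison of genotypes. None of them overlapped between the genotypes. They are descriptions, since the difference in Ccnd2 is in each of them.

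On the scale of normalized counts per kilobase of exons, the order of the genes in controls was Cdk4 (1603.4 ± 93.8), Ccnd1 (827.9 ± 59.3), Ccnd3 (475.4 ± 16.3), Cdkn1b (474.6 ± 44.1), Cdkn1a (358.0 ± 85.6), Cdkn2d (294.1 ± 32.1), Rb1 (162.4 ± 14.1), Cdkn2c (124.1 ± 11.8), Cdk6 (86.9 ± 8.8) and Ccnd2 (86.2 ± 9.7). Of neighbours in this order, the sample ranges overlapped for Ccnd3 and Cdkn1b, for Cdkn1b and Cdkn1a, for Cdkn1a and Cdkn2d, and for Cdk6 and Ccnd2. In Mrc1Cre Xpr1fl/fl samples Ccnd2 stood at 284.2 ± 26.0 per kilobase, which moved it from rank 10 to rank 6, behind Ccnd3 at 345.3 ± 20.6 and ahead of Rb1 at 191.6 ± 10.7. The ranges of Ccnd2 (248.1 to 319.2) and Ccnd3 (318.6 to 372.0) touched there, and those of Cdkn1b and Cdkn1a, of Rb1 and Cdkn2d, and of Cdkn2c and Cdk6 overlapped. With the longest transcript as the length, Ccnd2 moved from rank 9 to rank 7.

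When the date was included, 1 of the 9 genes other than Ccnd2 passed the threshold, Ccnd3 with a lower level, where 8.78% of all genes tested did, 4.24% higher and 4.54% lower. The median log2 fold change of the 9 genes was then 0.05. This fit draws the genotype difference from 1 Mrc1Cre Xpr1fl/fl sample and 3 controls, and Xpr1fl/fl sample 4 is fitted by its own date. Sample 5, the Mrc1Cre Xpr1fl/fl sample in that comparison, also had the highest summed erythroid level of its group (318839). With the erythroid covariate limma called 0 of the 9 genes (2 at an unadjusted p under 0.05) and 0.154% of all genes tested, 0.125% higher and 0.0294% lower. Ccnd2 had a log2 fold change of 1.40 in that fit. The part of erythroid RNA in the differences of Ccnd3, Cdkn2d and Rb1 was not tested beyond these fits. Annotated genes on the opposite strand overlap Ccnd1 (LTO1), Ccnd3 (Bysl), Cdk4 (Tspan31) and Rb1 (Rcbtb2 and Lpar6) and are in the table. These overlaps are between whole genes, introns included, whereas salmon quantified transcripts, so the pairs may share little transcript sequence. The library kit keeps strand, but the strand setting of the counting is not given in the sources used here. Whether reads of any shared stretch were separated is therefore not known.

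Beyond the 10 genes, 35 of 38 further genes of the cell cycle machinery were measured. Of these 4 were higher, 12 were lower and 19 did not pass the threshold, with a median log2 fold change of −0.05. The 45.7% called are close in total to the 43.1% of all genes tested. All genes tested divided into 21.5% higher and 21.6% lower, whereas the list had 4 higher and 12 lower. The largest rises were in Skp2, which marks p27 for degradation (2573.1 to 2913.0 against 2040.7 to 2257.4 normalized counts, log2 fold change 0.33, limma adjusted p = 0.000552), and in E2f6, a repressor of the E2F family (0.33, limma adjusted p = 0.00344). The largest falls were in Cdkn1c, the CIP/KIP inhibitor p57, with 132.0 to 236.4 against 317.1 to 481.3 normalized counts (−1.24, limma adjusted p = 0.000427), and in Tfdp2, which encodes a DP partner of E2F factors, with 691.7 to 1125.4 against 1511.2 to 2413.2 (−1.24, limma adjusted p = 0.000159). When the date was included 1 gene of the list was called, Ccnb2, and these 4 genes had log2 fold changes of 0.33, 0.29, −1.18 and −0.71. With the erythroid covariate the values of Cdkn1c and Tfdp2 were −0.81 and −0.28, and neither was called. The other DP gene of the list, Tfdp1, did not pass the threshold (−0.05, limma adjusted p = 0.449).

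The cyclins and E2F factors downstream of D-type cyclins are named next, although their values had been seen. Of the E, A and B cyclins, which drive S phase and mitosis, Ccne1 (−0.28), Ccne2 (−0.36), Ccna2 (−0.31) and Ccnb2 (−0.34) were lower and Ccnb1 did not pass (0.20, limma adjusted p = 0.0692). Their kinases Cdk2 (−0.14) and Cdk1 (−0.03) did not pass the threshold. Among the E2F genes, E2f1 (−0.23), E2f2 (−1.10), E2f4 (−0.31) and E2f8 (−0.40) were lower, E2f6 was higher, and E2f3, E2f5 and E2f7 were not called. Over all genes tested 21.5% were higher and 21.6% lower. With the date included E2f1, E2f2, E2f4 and E2f8 had values of −0.126, −0.685, −0.028 and −0.335. With the erythroid covariate they had −0.161, −0.055, 0.079 and −0.223. Of the cyclin and E2F genes of this paragraph, Ccnb2 alone was called with the date, and none was with the covariate. In these fits 8.78% and 0.154% of all genes tested were called. Of the relatives of RB1, Rbl1 (p107) was higher by 0.27 (limma adjusted p = 0.0218), a call lost when samples were scaled to their 75th percentile, and Rbl2 (p130) had a value of 0.02.

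Of 21 regulators of D-type cyclins, 5 were higher, 6 lower and 10 not called (52.4% called, against 43.1% of all genes tested), with a median of 0.01. Gsk3b, a kinase that marks cyclin D1 for export and degradation, was higher with 4227.3 to 5097.1 against 2921.7 to 3939.1 normalized counts (0.39, limma adjusted p = 0.00383). Ambra1, the substrate receptor through which D-type cyclins are ubiquitinated, was higher as well (0.33, limma adjusted p = 0.00115). Jun, a subunit of AP-1, was lower with 7377.1 to 9243.3 against 9391.9 to 15673.2 (−0.54, limma adjusted p = 0.00454). Klf4, a transcription factor of quiescent cells and monocytes, was lower by the test (−0.56, limma adjusted p = 0.0165), but not without Xpr1fl/fl sample 3 (−0.46, limma adjusted p = 0.0549). Myc and Csf1r, the receptor for CSF1, had log2 fold changes of 0.01 and 0.14 and were not called. With samples scaled to their 75th percentile, 3 regulators were higher and 6 lower, where 14.7% and 27.3% of all genes tested were. In the fit with the date 1 was higher and 1 lower, where 4.24% and 4.54% of all genes tested were. Gsk3b and Ambra1 had values of 0.3 and 0.285 in that fit, and neither was called.

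Cdkn1a belongs to the targets of p53, of which 22 others were tested. They split into 7 higher, 4 lower and 11 not called, with a median of 0.10, so 11 of 22 were called where 43.1% of all genes tested were. Pmaip1, which encodes the apoptosis factor NOXA, had 5677.2 to 7297.7 normalized counts against 2914.1 to 4129.7 (0.86, limma adjusted p = 7.32e-05). Sesn2, a stress-induced regulator of mTORC1, was higher by 0.46 (limma adjusted p = 0.000744). With the erythroid covariate Pmaip1 and Sesn2 had values of 0.56 and 0.74, and neither was called. Lower were Gadd45a, a gene of growth arrest, with 152.7 to 316.2 against 508.2 to 679.4 (−1.35, limma adjusted p = 0.000207), and Ddb2, a gene of DNA repair (−0.88, limma adjusted p = 0.00166). Gadd45a and Ddb2 were not called with the date (−0.75 and −0.58, limma adjusted p = 0.0857 and 0.209), and their values were −0.007 and −0.08 with the erythroid covariate. In the fit with the date 4 p53 targets were higher and 1 lower, with a median of 0.16, where 8.78% of all genes tested were called. Scaled to the 75th percentile, 4 were higher and 4 lower, where 42% of all genes tested were called.

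Genes of DNA replication and mitosis, which dividing cells express, showed small differences in both directions. Among 44 replication genes 4 were higher, 10 lower and 30 not called (31.8% called), with a median of 0.00. Over all genes tested 43.1% were called, 21.5% higher and 21.6% lower. The summed level of the replication genes was 111737 to 127613 normalized counts in Mrc1Cre Xpr1fl/fl samples and 115433 to 127985 in controls. Rrm2 and Tk1, which supply nucleotides, were lower (−0.44, limma adjusted p = 0.000219, and −0.41, limma adjusted p = 0.000487). Ung, which removes uracil from DNA, was higher by the test with 795.6 to 1070.8 against 661.0 to 845.4 normalized counts (0.29, limma adjusted p = 0.0292), but not when samples were scaled to their 75th percentile (0.21, limma adjusted p = 0.112). The call was also lost without Mrc1Cre Xpr1fl/fl sample 2, 3 or 5 or Xpr1fl/fl sample 3 or 4, with an adjusted p of at most 0.0929. Under that scaling 0 replication genes were higher and 16 lower by limma, with 1 and 17 at an unadjusted p under 0.05. It moved all genes tested in the same way, to 14.7% higher and 27.3% lower.

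Of 39 mitotic genes 6 were higher, 6 lower and 27 not called (30.8% called, against 43.1% of all genes tested, 21.5% higher and 21.6% lower). The median of the mitotic genes was 0.07 and their summed level 105737 to 122582 against 100943 to 121366. Cenpe, a kinetochore motor, and Bub1, a kinase of the spindle checkpoint, were higher by the test (0.46, limma adjusted p = 0.00441, and 0.40, limma adjusted p = 0.0148), although the samples of the genotypes overlapped for both. Spc24, a subunit of the kinetochore, and Nusap1, a spindle protein, were lower without overlap (−0.49, limma adjusted p = 0.00117, and −0.38, limma adjusted p = 0.000733). Including the date left 1 gene of the list higher and 1 lower, where 8.78% of all genes tested were called. With 75th percentile scaling 5 were higher and 8 lower, where 14.7% of all genes tested were higher and 27.3% lower. The lists were chosen with earlier results of these data known, so no list was tested as a set. In the plot of the lists the medians of the 5 cell cycle lists lie between −0.05 and 0.10.

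**Figure D4:**
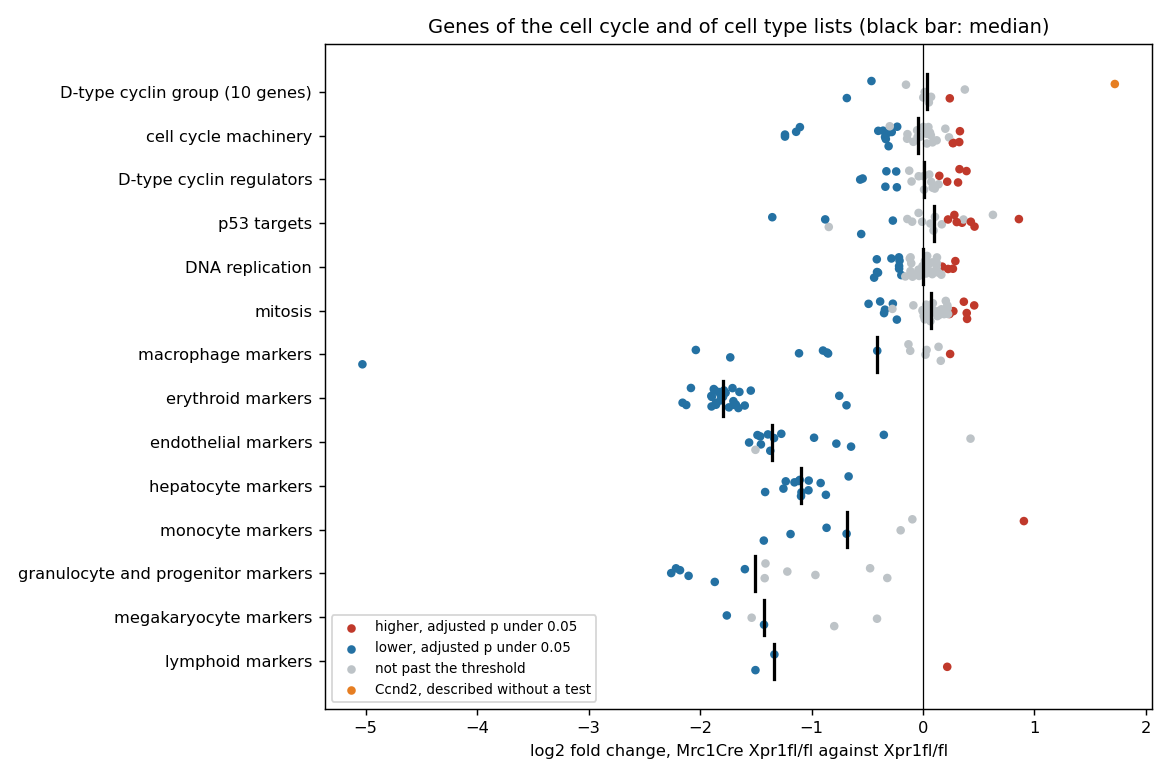
Log2 fold changes (Mrc1Cre Xpr1fl/fl against Xpr1fl/fl) of the 10 genes, of the other cell cycle lists and of marker lists of cell types, 1 point per gene, coloured by the limma call (Ccnd2 in orange, without a test), with a black bar at each median. The medians of the cell cycle lists lie near 0, and those of the erythroid, endothelial and hepatocyte markers at −1.79, −1.35 and −1.09.

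The genes whose pattern over the 9 samples was most like that of Ccnd2 were sought among 11392 genes with a mean of 50 normalized counts or more, by the Pearson correlation of log2 values. They were Srp68 (r = 0.9988), Clec4a3 (0.9918), Sla (0.9904), H2-T22 (0.9897) and Ly9 (0.9893). Srp68, a subunit of the signal recognition particle, had 2929.2 to 3116.7 normalized counts in Mrc1Cre Xpr1fl/fl samples and 2382.2 to 2470.9 in controls, a log2 fold change of 0.31. Ly9, a receptor of the SLAM family, had 4437.3 to 4781.8 and 2129.6 to 2679.5, a log2 fold change of 0.96. In total 255 genes had a correlation over 0.95. The genotypes stand apart in Ccnd2, and such a correlation mostly describes a gap between the genotypes that is wide against the spread within them.

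The plot of alternatives shows how far each of the 10 fold changes moved with the processing. Ccnd2 stayed between 1.40 and 1.78, Ccnd3 between −0.57 and −0.21 and Rb1 between 0.16 and 0.34, and Cdkn2d ranged from −0.77 to −0.06. Ccnd1, Cdk4, Cdk6 and Cdkn1b had values on both sides of 0.

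**Figure D5:**
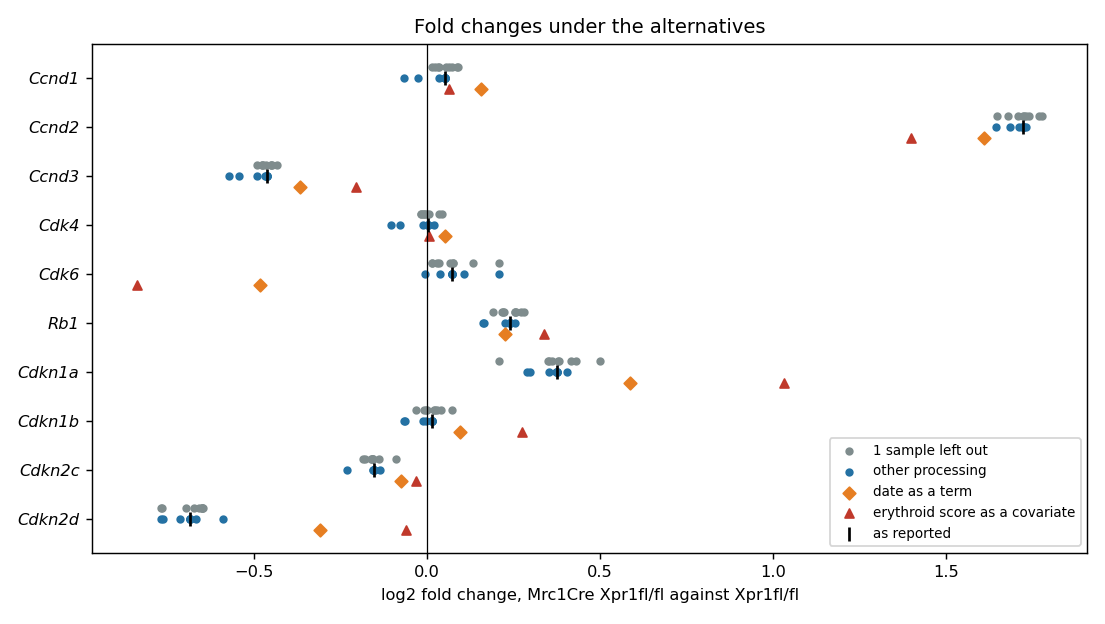
Log2 fold change of each of the 10 genes as reported (black bar), with each of the 9 samples left out in turn (grey), with other pseudocounts, filters, scalings, limma settings or the replicate block (blue), with the date included (orange) and with the erythroid score as a covariate (red). For Cdk6, Cdkn1a and Cdkn2d the red and orange points lie farthest from the black bar.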

How the data were processed

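Fetal livers of E15.5 embryos were dissociated and macrophages were sorted as CD45+ F4/80hi CD11blow cells. From 45 ng of RNA per sample, libraries were made with an Illumina stranded mRNA kit and sequenced paired-end. The authors checked reads with FastQC, quantified transcripts with salmon against a GRCm39 index, and summarised them per gene for DESeq2 by means of tximport and AnnotationHub. Versions and the strand setting are not given in the sources used here. The deposited table is a signal that is never negative, since the authors made it by normalizing gene counts with DESeq2. It lists 13708 genes by Ensembl identifier, each with a mean of 5.789 normalized counts or more, so genes of low counts had been taken out. Whole reads could not be recovered from it: 26.0 to 49.7% of values under 10 lay within 5% of a whole multiple of the best spacing, where chance gives 10%. Absolute depth is therefore unknown, no counting interval is given, and a count model could not be used.

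Identifiers were paired with symbols and GRCm39 coordinates from GENCODE release 39 for the mouse (13698 of 13708 matched), and all 9 columns could be tied to a sample. The test was limma 3.58.1 (R 4.3.3), with lmFit and a trended eBayes step, on log2(normalized count + 1) in genes that reached 10 normalized counts in 4 samples or more. Benjamini-Hochberg adjustment ran over the 13594 genes that passed, with a threshold of 0.05. A fold change on this scale is smaller than the true one for genes of low counts. Errors are SDs over samples, and intervals are 95% intervals from limma. Tables and figures were made in Python 3.11.15 with matplotlib 3.10.9, and the fits were tested on simulated data.

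The 10 genes and all lists were chosen with earlier results of these data known. The genes named are the 10 genes, Xpr1 and Mrc1, from each list of the cell cycle the 2 largest rises and the 2 largest falls past the threshold among genes whose mean reached 50 normalized counts, the most abundant marker of each cell type, and the 5 genes most correlated with Ccnd2. Others are said to have been named after their values were seen, and 1 gene that the rule named is not reported here. Alternatives were other pseudocounts, filters, scalings and limma settings, the replicate number as a block, the date, the mean log2 value of the erythroid markers as a covariate, other lengths, and leaving out each sample. Promoter windows were read from a RefSeq table on GRCm38.p6, whose coordinates were not mixed with those of GRCm39.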

Additional observations from a re-analysis of the deposited data

Results flagged for a closer look

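In groups of 4 or 5 samples, the highest and lowest values were checked with Dixon's test for the 10 genes, the other named genes and the Ccnd2 share. Of 90 groups 5 held a sample apart from the rest, where chance gives about 4.5, that is about 1 in 20.

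For Cdkn2c, Mrc1Cre Xpr1fl/fl sample 1 had 678.5 normalized counts and the other 4 samples of its genotype had 710.2 to 717.9. For the share of Ccnd2 in the summed D-type cyclin level, Xpr1fl/fl sample 4 stood at 5.13% and the other 3 controls at 6.49 to 6.65%. Hba-a1, the most abundant erythroid marker, had 85791.2 normalized counts in Mrc1Cre Xpr1fl/fl sample 5 and 25797.6 to 43152.1 in the other 4. It is almost identical to Hba-a2, so the division of reads between them is uncertain. S100a9, a gene of granulocytes, had 4994.6 normalized counts in the same sample and 907.5 to 1786.8 in the others. Trf, which encodes transferrin and is a marker of hepatocytes, had 27161.3 normalized counts in Xpr1fl/fl sample 2 and 36806.6 to 38737.5 in the other 3 controls.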

How the results depend on the processing

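The log2 fold changes of Ccnd3, Rb1, Cdkn1a, Cdkn2c and Cdkn2d kept their sign under all 12 alternatives and in all 9 fits that left out a sample, whereas Ccnd1, Cdk4, Cdk6 and Cdkn1b, whose values lay near 0, did not. Scaled to the 75th percentile they were −0.026, −0.076, −0.006 and −0.062, and after quantile normalization Ccnd1, Cdk4 and Cdkn1b stood at −0.065, −0.102 and −0.067. With array weights Cdkn1b was −0.011. Leaving out 1 sample at a time gave −0.018 to 0.043 for Cdk4 and −0.031 to 0.073 for Cdkn1b. For Cdk6 the value was −0.48 with the date and −0.84 with the erythroid covariate.

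The counts of calls moved most in these last fits. Ccnd2, by which the genes were chosen, is left out of the counts given for them. With the date, limma called 1194 of all genes and 1 of the 9 genes other than Ccnd2. It also called 1 gene of the machinery, 2 regulators, 5 p53 targets, 2 replication genes and 2 mitotic genes. With the erythroid covariate it called 21 of all genes, 0 of the 9 genes and 0 in each of the other 5 lists. At an unadjusted p under 0.05 there were 1441 of all genes and 2, 0, 11, 7 and 2 in those lists. The covariate shares an r2 of 0.854 with genotype, which inflates the variance 6.85 times. Under it Ccnd2 lay 1.39 above the median of the other 9 genes, and the sign turned for Klf4 (0.21), Bub1 (−0.21), Cd5l (0.19), Hba-a1 (0.33) and S100a9 (0.56). Of the 44 genes named by rule, 22 lost their call with the date and 32 with the covariate while keeping their sign. Without division by length the gap in the Ccnd2 share was 17.9 percentage points.

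Leaving out 1 sample gave 4815 to 6081 calls over all genes. Of the 9 genes other than Ccnd2, Ccnd3, Rb1 and Cdkn2d were called in all 9 of these fits. Cdkn1a was called without Mrc1Cre Xpr1fl/fl sample 2 and without Xpr1fl/fl sample 4. The calls over these fits were 15 to 18 of the machinery, 9 to 11 regulators, 8 to 12 p53 targets, 10 to 14 replication genes and 10 to 15 mitotic genes. The distance of Ccnd2 from the median of the others was 1.62 to 1.76, and the gap in its share 12.5 to 13.3 points. S100a9 was called without Xpr1fl/fl sample 4 (−2.34, limma adjusted p = 0.00678).

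Both genotypes are numbered from 1, but samples with the same number did not deviate together (r = −0.03, 0.15, −0.01 and −0.03), so they share only a number. With the replicate block 6226 of the 13594 genes tested were called. Of the 9 genes other than Ccnd2, these included Ccnd3, Cdk6, Rb1, Cdkn1a and Cdkn2d. Called as well were 19 genes of the machinery, 11 regulators, 10 p53 targets, 16 replication genes and 18 mitotic genes, and Ccnd2 lay 1.73 above the median of the others. Only Mrc1Cre Xpr1fl/fl sample 5 has the number 5, so the block fits it by its own term and it adds nothing to the genotype difference. The values of Cdk6 and Cdkn1a were the same as without that sample. Under this block Cdk6 (0.21, limma adjusted p = 0.0431), Cdkn1a (0.35, limma adjusted p = 0.0195) and S100a9 (−1.83, limma adjusted p = 0.0449) were called and Ung (0.24, limma adjusted p = 0.051) was not, while Cdk4 was −0.012 and Cdkn1b −0.001.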

Other observations

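Further genes of the lists are given here, chosen after their values were seen. Nfkb1, a subunit of NF-kappaB, was higher in Mrc1Cre Xpr1fl/fl macrophages without overlap, with 4101.6 to 4393.2 against 3062.4 to 3587.2 normalized counts (log2 fold change 0.32, limma adjusted p = 0.000902), and also with the date included (0.33, limma adjusted p = 0.0264). Cdc25b, a phosphatase that activates CDK1, was lower at 1047.1 to 1950.9 against 2627.5 to 3670.6 (−1.14, limma adjusted p = 0.00024), and its value was 0.03 with the erythroid covariate.

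Among p53 targets, Mdm2, which encodes the ligase that degrades p53, had 2752.5 to 3026.0 against 2140.3 to 2392.7 normalized counts (0.35, limma adjusted p = 0.000337; 0.38 with the date, limma adjusted p = 0.0324). Sesn1, a relative of Sesn2, was lower at 2761.6 to 3085.2 against 4016.8 to 4385.7 (−0.55, limma adjusted p = 2.33e-05; −0.48 with the date, limma adjusted p = 0.00654). Mki67 and Top2a, which are widely used to mark dividing cells, overlapped between the genotypes, with 16248.4 to 22352.4 against 16128.3 to 22999.5 and 9229.2 to 11274.2 against 9695.4 to 10855.6 normalized counts, and were not called (limma adjusted p = 0.775 and 0.491).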
